A study of Mus musculus with 4 samples.

Results

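The lens crystallins are 10 genes on this array: the alpha crystallins Cryaa and Cryab, the acidic beta crystallins Cryba1, Cryba2 and Cryba4, the basic beta crystallins Crybb1, Crybb2 and Crybb3, and the gamma crystallins Crygs and Crygn. They were taken by gene name, or by the current symbol of the probe's RefSeq accession, and the rule that picks their probes uses no measured value. They are 10 of 21237 named genes on the array, and together they had 13 of the 41174 probes on the array: a pair each for Cryaa, Cryab and Crybb1, and 1 for each of the others.

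Expression was measured in thymic epithelial cells (TECs) of mice on 4 single-colour (Cy3) Agilent microarrays. All mice carried K14-CreERT2, a recombinase driven by the keratin 14 promoter that acts once tamoxifen is given, and all received 1 mg of tamoxifen into the peritoneum on each of 3 days at an age of 3 weeks. The Meis1-CKO group was K14-CreERT2 Meis1fl/fl, and the control group was K14-CreERT2 Meis1fl/+, which the labels call WT although it too carries Cre and 1 floxed allele. EpCAM+ CD45- cells were sorted 4 days after tamoxifen, following magnetic removal of CD45 and Ter119 positive cells, and 10 ng of RNA was amplified. There were 2 pools per genotype, of 6 mice each, made in 2 separate experiments, so a value is that of a pool and not of a mouse. Control 1 and Meis1-CKO 1 were hybridised on the same slide (slide 1), and control 2 and Meis1-CKO 2 on the other (slide 2).

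Crystallins are the soluble proteins that fill the fibre cells of the eye lens and give it transparency and refractive power. The alpha crystallins are small heat shock proteins that keep other proteins from aggregating, and Cryab is also made in muscle, heart and other tissues. The beta and gamma crystallins are structural proteins of a second superfamily, built from repeated Greek key folds. Medullary TECs transcribe many genes of peripheral tissues, under the autoimmune regulator Aire, the zinc finger factor Fezf2 and other factors, and display their products to developing T cells, so that T cells against them can be removed or diverted. MEIS1 is a TALE homeobox factor, and its family is known in the lens as an activator of Pax6.

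Several probes were checked by their letters, since they decide what is read as a crystallin transcript. Those of Cryab are shown because they behaved differently. In Cryab probe 1 (mm9, chr9:50561281-50561340, plus strand) capitals mark a heat shock element core, GAANNTTC, and a TATATAA run. Probe 2 (chr9:50564440-50564499, plus strand) starts 3159 bases downstream. The probes of Cryaa (probe 1, chr17:31816606-31817969, plus strand), Crybb1 (probe 2, chr5:112696433-112698351, plus strand) and Crybb3 (chr5:113506655-113507419, minus strand) are shown because their 60 bases span 1364, 1919 and 765 bases of the genome, so that they read across an intron.
Cryab probe 1: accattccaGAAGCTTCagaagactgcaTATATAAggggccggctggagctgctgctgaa
Cryab probe 2: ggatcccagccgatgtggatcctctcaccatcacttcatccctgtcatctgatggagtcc
Cryaa probe 1: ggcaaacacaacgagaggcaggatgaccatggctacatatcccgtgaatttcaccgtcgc
Crybb1 probe 2: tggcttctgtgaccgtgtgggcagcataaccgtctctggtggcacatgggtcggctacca
Crybb3: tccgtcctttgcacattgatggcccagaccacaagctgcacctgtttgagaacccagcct

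In all, 5 of the 13 probes spanned more than 60 bases in this way, and each of the 5 was above background on at least 2 arrays. The longest run of letters shared with a probe of another gene was 15 bases, between Cryba2 and G3bp2, a stress granule protein gene. Several genes overlap an annotated neighbour in the RefSeq table: Cryab with Hspb2 and 2310030G06Rik, Cryba4 with Crybb1, Crybb2 with Gm43247, Crygs with Gm30416 and Crygn with Gm33591. The sources used here do not say whether the labelling kept the strand, so signal from an overlapping antisense transcript could not be told apart at these genes.

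Crystallin transcripts were above background in sorted TECs of both genotypes. A level below is the log2 processed signal minus the array's 75th percentile, so 0 is the brightness of the array's 75th percentile spot, and a difference is Meis1-CKO minus control on that scale. The software that read the scans marked 10 member probes above background in control 1, 12 in control 2, 12 in Meis1-CKO 1 and 9 in Meis1-CKO 2. Of all non-control spots it marked 58.6%, 61.4%, 63.6% and 61.3% in the same order. On all 4 arrays 9 of the 13 probes passed, beside 20818 of all 41174 probes, and the Crygs probe passed on none. Levels of different probes are not ordered here, because probes bind with different strength.

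No difference between the genotypes was resolved beyond the spread between pools for any crystallin gene tested. With 2 pools per genotype, this does not show that the genotypes were alike. A gene entered the test where both pools of either genotype gave a probe signal above background, and the brightest such probe stood for the gene. This admitted 7 of the 10 genes, and Crybb2, Crygs and Crygn were not tested. The mean was lower in Meis1-CKO for 7 of the 7, with a median log2 difference of -0.61 (range -0.72 to -0.20), where 54.7% of all 16775 features tested were lower and their median was -0.05. None of the 7 was called at an adjusted p under 0.05 by limma, either higher (0% of all features called) or lower (0%), and none had an unadjusted p under 0.05 (2.78% of all features). The unadjusted limma p-values of the 7 ran from 0.319 to 0.747. With normexp background correction in place of the scanner software's, all 7 differences kept their sign and were nearer to 0, between -0.38 (Crybb1) and -0.10 (Cryaa). At the probe that stood for it, no tested gene had both Meis1-CKO pools below both control pools (14.4% of all features) or above them (11.1%). In pools of cells, fewer cells that make a transcript and less of it per cell cannot be told apart.

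Meis1-CKO 2 gave the lowest level of all 7 tested genes, an array that was the lowest for 36.9% of all features. Control 2 gave the highest level of 4 of them, and how often it was the highest over all features was not counted. The median level of the 7 was -1.26 in control 1, -0.80 in control 2, -1.06 in Meis1-CKO 1 and -1.70 in Meis1-CKO 2.

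**Figure D1:**
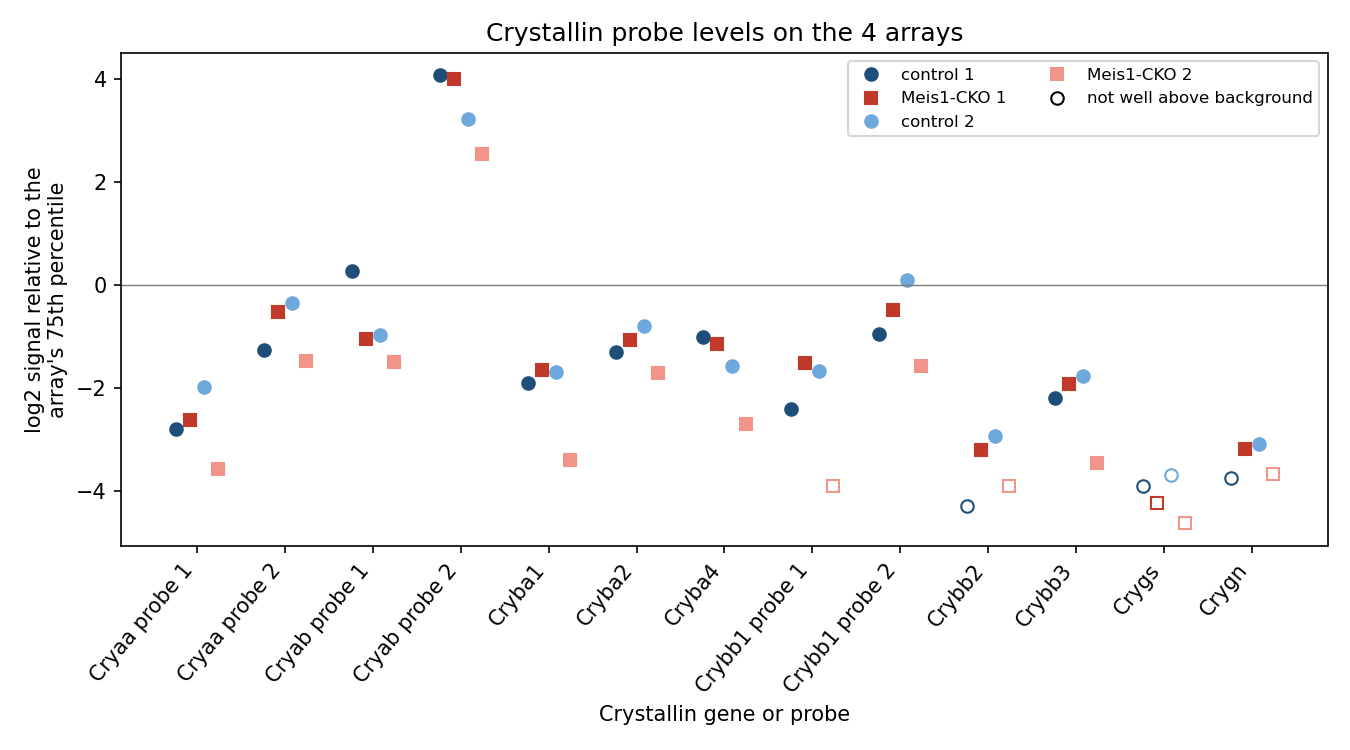
Log2 level of the crystallin probes (log2 signal minus the array's 75th percentile) on each of the 4 arrays, with circles for control, squares for Meis1-CKO and open symbols where a probe was not well above background. Cryab probe 2 lies above 0 on every array, the Crygs probe is above background on none, and Meis1-CKO 2 is the lowest point of each of the 7 tested genes.

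Cryab, the small heat shock protein alpha B crystallin, read 4.08 in control 1, 3.23 in control 2, 4.00 in Meis1-CKO 1 and 2.55 in Meis1-CKO 2 at probe 2. It was the only probe of the 13 with a mean above the 75th percentile, and its groups overlapped. The log2 difference came to -0.38 (limma SE 0.66, adjusted p = 1.00, 2 pools per genotype). At probe 1, which holds the heat shock element letters shown above, the levels were 0.26, -0.96, -1.05 and -1.49 in the same order. There both Meis1-CKO pools lay below both control pools, an order seen in 14.4% of all features tested. Control 1 stood above the other 3 arrays, and the difference was -0.92 (SE 0.58, limma adjusted p = 1.00 over all probes). The probes of Cryab thus disagreed on whether the groups overlapped, and neither was called. No promoter sequence of Cryab was at hand, so where probe 1 lies relative to the gene start was not checked. The probes may not read the same transcript, which also limits their average.

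Cryaa, alpha A crystallin, is made mostly in the lens. Its probe 2 read -1.26 in control 1, -0.35 in control 2, -0.52 in Meis1-CKO 1 and -1.48 in Meis1-CKO 2. The lowest control and the lowest Meis1-CKO pool were close, and the difference was -0.20 (SE 0.58, limma adjusted p = 1.00). The intron-spanning probe 1 was above background on all 4 arrays, with levels of -2.79, -1.97, -2.62 and -3.57 and a difference of -0.71 (SE 0.57). With the probes of a gene averaged, the difference was -0.45 for Cryaa and -0.65 for Cryab. In both Cryaa probes control 2 was the highest array and Meis1-CKO 2 the lowest.

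The acidic beta crystallins are partners of the basic ones in mixed oligomers of the lens. Cryba1, which also has a role in lysosomes of retinal cells, read -1.91 in control 1, -1.69 in control 2, -1.65 in Meis1-CKO 1 and -3.39 in Meis1-CKO 2. The first 3 arrays lay within a narrow range, Meis1-CKO 2 was far below them, and the difference was -0.72 (SE 0.68, limma adjusted p = 1.00). Cryba2 read -1.30, -0.80, -1.06 and -1.70 in the same order, with overlapping groups and a difference of -0.33 (SE 0.49). Cryba4 read -1.02, -1.58, -1.14 and -2.70, and its difference was -0.62 (SE 0.65). For Cryba4 control 1 was the highest array, whereas for Cryba2 control 2 was.

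Among the basic beta crystallins, Crybb1 probe 2 read -0.94 in control 1, 0.09 in control 2, -0.49 in Meis1-CKO 1 and -1.57 in Meis1-CKO 2. Meis1-CKO 1 lay between the controls, and the difference was -0.61 (SE 0.62, limma adjusted p = 1.00). Its probe 1, which begins 3778 bases upstream, read -2.40, -1.67, -1.51 and -3.91 and was not above background in Meis1-CKO 2, so that the difference of -0.67 (SE 0.86) rests in part on a dim signal. Crybb3 read -2.20, -1.77, -1.92 and -3.45, with 3 arrays close together and Meis1-CKO 2 below them, and a difference of -0.70 (SE 0.64). Crybb2, the neighbour of Crybb3 on chromosome 5 and a major protein of the adult lens, was above background in control 2 (-2.94) and Meis1-CKO 1 (-3.20) and not in control 1 (-4.30) or Meis1-CKO 2 (-3.90). No fold is given for it, since neither genotype had a measured level in both pools.

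The gamma crystallins, of which Crygs is made in the adult lens cortex, were at or near background. Crygn was above background in control 2 (-3.09) and Meis1-CKO 1 (-3.19) and not in control 1 (-3.75) or Meis1-CKO 2 (-3.67). Crygs was not above background on any array, with readings from -4.63 to -3.70. Its only probe matches from base 8 after the gene start, near the 5′ end, so these readings do not show that Crygs was absent. The lowest level that counted as above background lay between -3.78 and -3.42 on the 4 arrays, and Crygs read below its array's limit on each.

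The 2 slides gave different pictures. On slide 1, 5 of the 7 tested genes were higher in Meis1-CKO than in control (50.1% of all features), namely Cryaa by 0.73, Crybb1 by 0.45, Crybb3 by 0.28, Cryba1 by 0.26 and Cryba2 by 0.24 on the log2 scale. Cryab (-0.08) and Cryba4 (-0.13) were lower there (49.9% of all features), and the median of the 7 was 0.26. On slide 2, 7 of the 7 were lower (56.3% of all features), with a median of -1.12 and a range of -1.70 to -0.68. At least a 2-fold lower signal was read there for 5 of them (17.1% of all features): Cryba1 (-1.70), Crybb3 (-1.68), Crybb1 (-1.66), Cryaa (-1.12) and Cryba4 (-1.11). Both directions together, higher on slide 1 and lower on slide 2, held for 5 of the 7 and for 29.8% of all features.

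Features of like brightness moved in the same directions by less. Among the 4479 features whose mean level lay in the range of the members other than Cryab (-2.34 to -0.73), 61.3% were lower on slide 2, 21.9% were at least 2-fold lower there, and 35.0% were higher on slide 1 and lower on slide 2. Their median difference was 0.08 on slide 1 and -0.26 on slide 2, against 0.002 and -0.12 over all features. Each slide holds 1 array of each genotype, so a difference within a slide has no replicate and no test.

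**Figure D2:**
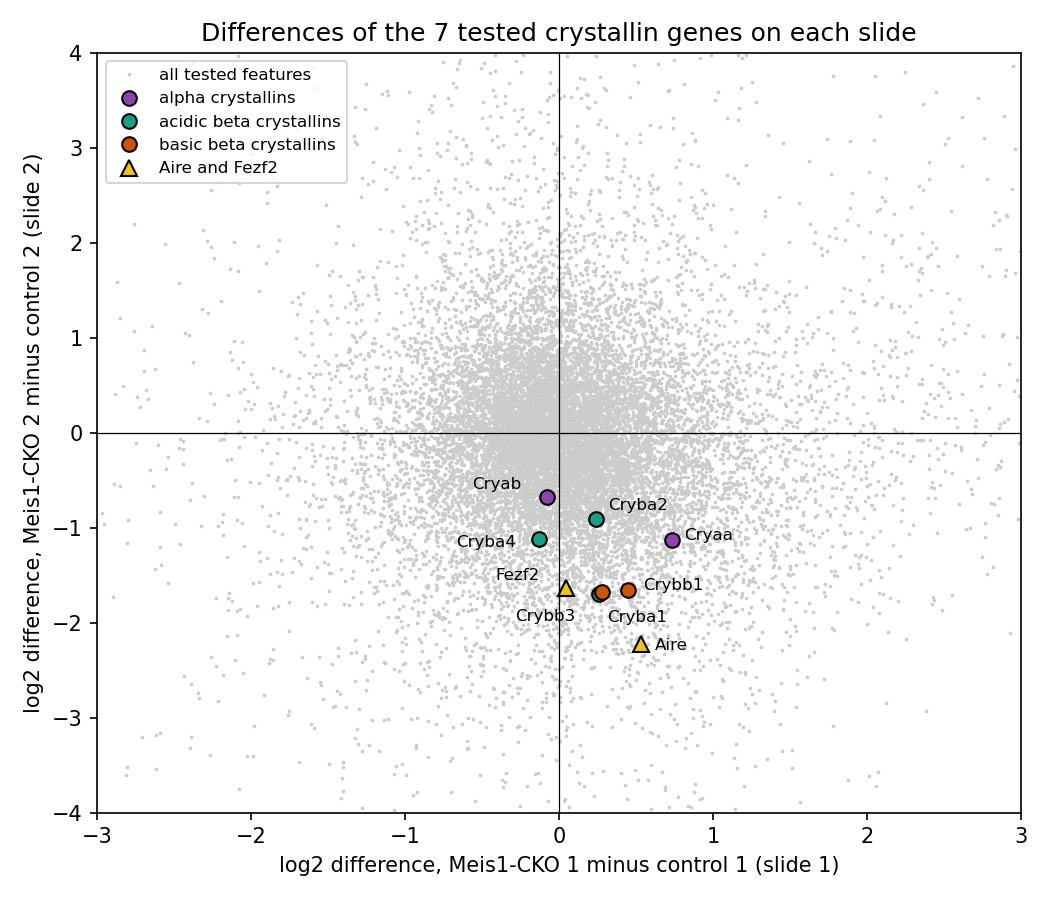
Log2 difference of Meis1-CKO minus control on slide 1 (x axis) and slide 2 (y axis) for the 7 tested crystallin genes, Aire and Fezf2, over all 16767 features with both values (grey), of which 293 fall outside the axes. All 7 crystallin genes lie below 0 on slide 2, and 5 of them lie right of 0 on slide 1.

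Leaving out Meis1-CKO 2 turned the difference for 5 of the 7 genes. Without it, Cryab read 0.35, Cryaa 0.28, Cryba4 0.15, Cryba1 0.15 and Crybb3 0.07, while Cryba2 (-0.01) and Crybb1 (-0.07) were near 0. Without Meis1-CKO 1, the differences ran from -1.59 for Cryba1 to -0.65 for Cryba2. Without control 2 Cryaa read 0.26, and without control 1 Cryab read 0.05. The lone array of a genotype is assumed in these fits to vary like the others.

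**Figure D3:**
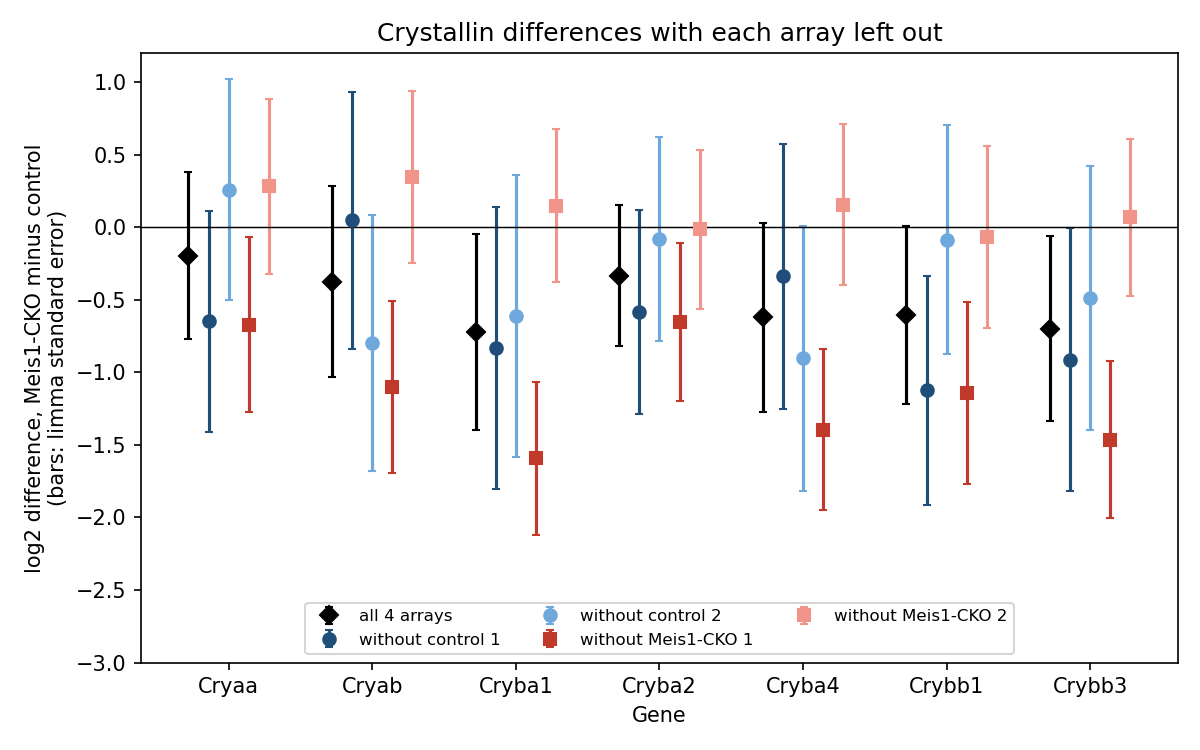
Log2 difference of Meis1-CKO minus control for each tested crystallin gene with all 4 arrays and with each array left out in turn, with bars for the limma standard error. Without Meis1-CKO 2 the points lie between -0.07 and 0.35, and without Meis1-CKO 1 between -1.59 and -0.65.

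Meis1-CKO 2 also stood apart from the other arrays as a whole, with correlations across 16767 features of 0.857 to 0.885 against 0.936 to 0.943 among the other 3, where genes are not independent replicates. Meis1 itself read -0.12, -0.91, -0.44 and -2.08 (difference -0.75, SE 0.69), and since the sources used here do not name the floxed exons, this does not check the labels. Marker lists of the sorted cells and of others were read on the same arrays. The 9 TEC markers, all of them tested, had a median level of 4.66 in control 1, 4.72 in control 2, 4.70 in Meis1-CKO 1 and 3.98 in Meis1-CKO 2. Myeloid markers (11 of 12 tested) had medians of -0.58, -0.18, -0.75 and 2.20 in that order, and thymocyte markers (11 of 12) 0.29, -0.29, -1.88 and 0.90. Skeletal muscle markers (13 of 14) had medians of -0.59, 0.02, -0.47 and -2.16, and fibroblast markers (5 of 8) 0.40, 0.27, 0.99 and -1.24. Of the 13 muscle genes, 10 were lower and 3 higher by the mean. On slide 1, 7 of them were higher, and on slide 2, 12 were lower. Both Meis1-CKO pools lay below both controls for 6 of them (14.4% of all features). Those with the smallest unadjusted p, the muscle filament genes Des (-1.88 on slide 1 and -2.43 on slide 2), Actc1 (-1.36 and -1.82) and Acta1 (-1.18 and -1.26), were lower on each slide. The unadjusted limma p-values of Des and Actc1 were 0.014 and 0.021, with adjusted p = 1.00. Erythroid markers (5 of 7 on the array) had 0.92, 0.29, 0.66 and -0.44, glial markers (6 of 9) 0.28, -0.50, -0.19 and -1.43, and endothelial markers (4 of 7) -2.82, -2.92, -2.21 and -2.93. Medians in Meis1-CKO 2 were the lowest of the 4 arrays for the TEC, muscle, fibroblast, erythroid and glial lists, the highest for the myeloid and thymocyte lists, and close to both controls for the endothelial list. The thymocyte list was furthest from the other arrays in Meis1-CKO 1. None of these markers was called, and their part in the crystallin values, that of muscle genes in those of Cryab included, was not tested.

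The factors that drive peripheral antigens in medullary TECs were read beside the crystallins. Aire read 2.50 in control 1, 4.59 in control 2, 3.03 in Meis1-CKO 1 and 2.37 in Meis1-CKO 2, a difference of 0.53 on slide 1 and -2.22 on slide 2. Fezf2 read 2.80, 2.68, 2.85 and 1.05, or 0.05 and -1.63 by slide. For both, as for the 7 tested crystallins, Meis1-CKO 2 was the lowest array (36.9% of all features). For Aire it lay close to control 1, and control 2 stood above the other arrays. This list, which also holds costimulatory genes, had 8 tested members, 4 higher and 4 lower with none called and a median of -0.11. The T cell costimulatory gene Cd86 (1.78, SE 1.60), the co-chaperone gene Dnajc7 (0.83, SE 0.60), Fezf2 (-0.79, SE 0.69) and the deacetylase gene Sirt1 (-0.77, SE 0.64) had the smallest unadjusted p-values. Cd86 read -0.48, 0.22, -0.90 and 4.20, so it was lower in Meis1-CKO on slide 1 (-0.41) and high in Meis1-CKO 2 alone.

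Other genes of lens fibres and of crystallin control were read on the same arrays, where 16775 of all 28036 features were bright enough to be tested. Of 13 lens fibre genes, 6 were tested, 2 higher and 4 lower with a median of -0.40 and none called. Mip, the water channel of lens fibres, was above the 75th percentile in all pools (2.72, 1.91, 2.99 and 1.64). Of the lens filament genes, Bfsp2 (-1.54, SE 1.23) went opposite ways by slide (-3.75 and 0.66). Bfsp1 (-0.61, SE 0.50) lay below both controls in both Meis1-CKO pools (14.4% of all features). Of 19 regulators of lens genes, 7 were above background on no array (Pax6, Mafa, Sox1, Sox2, Pitx3, Hsf4 and Six3). Of the 11 tested, 3 were higher and 8 lower with a median of -0.30 and none called. The median level of the 11 was 0.97 in control 1, 0.21 in control 2, 0.95 in Meis1-CKO 1 and -0.04 in Meis1-CKO 2. Foxe3, a forkhead factor of the lens epithelium, was dim and below both controls in both Meis1-CKO pools (14.4% of all features). It read -2.34 and -1.62 in control against -3.13 and -3.03 in Meis1-CKO (difference -1.10, SE 0.47, limma adjusted p = 1.00).

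Maf, a bZIP factor that activates crystallin genes in lens fibres, read 3.07, 3.09, 3.33 and 2.23, with a difference of -0.30 (SE 0.54). Its recognition letters were searched in the 250 bases before the gene start. RefSeq promoter sequences (GRCm38.p6) were at hand for 9 of the 10 genes, Cryab not among them. On either strand, TGCTGA was in 8 of the 9 members, all but Crybb2, and in 16.1% of 32851 promoters. The longer TGCTGAC, which holds TGCTGA, was in 4 of the 9 (Cryaa, Cryba1, Cryba4 and Crybb1) and in 3.81% of promoters. The MEIS letters TGACAG were in 1 of the 9 (Cryba1) and in 15.9% of promoters, and the heat shock element core GAANNTTC was in none of the 9 and in 6.69%. The promoters with TGCTGAC are printed 5′ to 3′ in the direction of the gene, with TGCTGAC and TGACAG in capitals, which overlap in Cryba1. They are those of Cryaa (chr17:31677681-31677930, plus strand), Cryba1 (chr11:77725294-77725543, minus strand), Cryba4 (chr5:112252519-112252768, minus strand) and Crybb1 (chr5:112255570-112255819, plus strand).
Cryaa: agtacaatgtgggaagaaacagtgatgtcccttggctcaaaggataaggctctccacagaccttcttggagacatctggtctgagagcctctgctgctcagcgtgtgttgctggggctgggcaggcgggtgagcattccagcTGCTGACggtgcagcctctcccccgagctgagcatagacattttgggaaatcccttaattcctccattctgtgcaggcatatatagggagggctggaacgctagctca
Cryba1: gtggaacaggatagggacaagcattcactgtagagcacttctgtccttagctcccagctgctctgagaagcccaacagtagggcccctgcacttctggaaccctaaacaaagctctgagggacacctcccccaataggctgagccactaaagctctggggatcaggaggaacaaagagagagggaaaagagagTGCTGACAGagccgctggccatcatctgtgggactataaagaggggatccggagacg
Cryba4: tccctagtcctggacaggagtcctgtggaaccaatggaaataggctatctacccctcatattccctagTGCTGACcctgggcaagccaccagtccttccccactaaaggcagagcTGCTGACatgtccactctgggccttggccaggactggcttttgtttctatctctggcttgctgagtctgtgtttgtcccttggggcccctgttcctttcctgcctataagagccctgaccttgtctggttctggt
Crybb1: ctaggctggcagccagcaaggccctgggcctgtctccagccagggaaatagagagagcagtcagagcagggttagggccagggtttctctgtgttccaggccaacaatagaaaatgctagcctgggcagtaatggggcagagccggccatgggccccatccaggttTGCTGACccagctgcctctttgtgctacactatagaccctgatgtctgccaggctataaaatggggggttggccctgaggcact

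The start of TGCTGAC lay 108 bases before the gene start in Cryaa, 57 in Cryba1, 84 in Crybb1, and 182 and 135 in Cryba4. A match describes letters and not a bound site. The 4 genes with TGCTGAC had differences of -0.20 (Cryaa), -0.72 (Cryba1), -0.62 (Cryba4) and -0.61 (Crybb1), and the tested genes with a listed promoter and only the shorter letters had -0.33 (Cryba2) and -0.70 (Crybb3).

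Cryab was set beside genes listed as small heat shock proteins by their Hspb symbol alone, which does not make each a chaperone relative. Of the 5 tested, 1 was higher and 4 lower with a median of -0.44, none called. Hspb11 (-0.56, SE 0.49) had the smallest unadjusted p. Hspb2, which shares its locus with Cryab, was next and read -1.66, -0.94, -1.73 and -1.80 (difference -0.46, SE 0.47). Both Meis1-CKO pools were thus just below both controls (14.4% of all features). Hspb8 (-0.44, SE 0.59) and Hspb1 (-0.18, SE 0.47) followed. The genes of the general heat shock response, 12 of 12 tested, had a median difference of -0.06, with 5 higher and 7 lower and none called.

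Over the 4 arrays, the features whose array-to-array pattern was nearest to that of Cryab, among 14584 above background on all arrays, were Amotl1, Gucy1a1 and Amacr, at root mean square distances of 0.032, 0.036 and 0.037 log2 units. The likeness rests on 4 arrays and is a description.

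**Figure D4:**
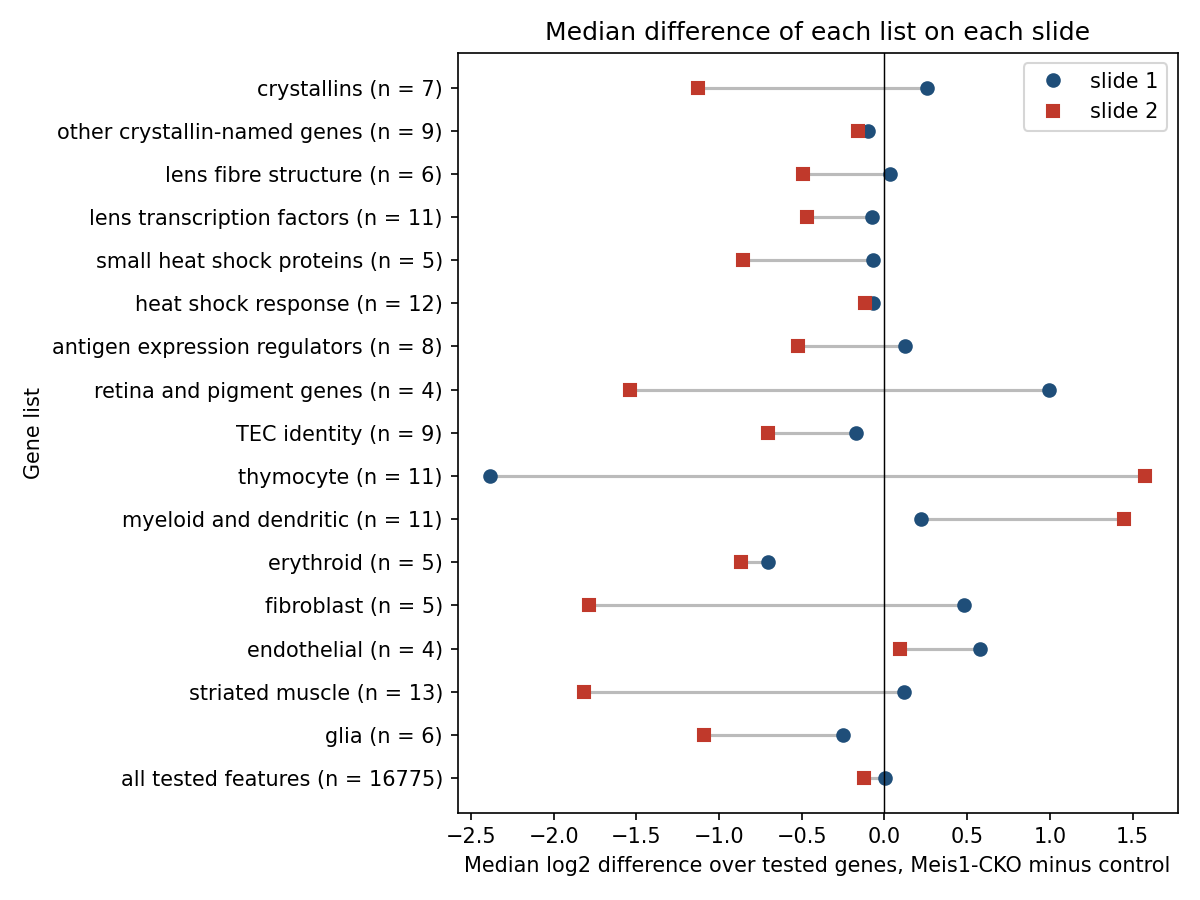
Median log2 difference of Meis1-CKO minus control over the tested genes of each list, on slide 1 (circles) and slide 2 (squares), with a line joining the slides and n for the genes. The crystallins lie at 0.26 on slide 1 and -1.12 on slide 2, beside 0.12 and -1.82 for muscle markers and 0.002 and -0.12 for all tested features.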

How the data were processed

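Each of the 4 pools was read on 1 array. The deposited scanner files hold linear spot intensity values which, per the file headers, were background-subtracted and spatially detrended by Agilent Feature Extraction 9.5.3.1 without scaling between arrays. The deposited value table holds log2 values; set against the scanner values it proved to be the same signals scaled to each array's 75th percentile and centred per probe (slope 1, correlation 1 over 20818 probes), with medians of 0.04 (control 1), 0.09 (control 2), -0.06 (Meis1-CKO 1) and -0.12 (Meis1-CKO 2). This left none of scale, centring and direction unknown, and the table served as an alternative.

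From each array 1639 control spots and 63 to 78 outlier spots were left out, spots of a probe were averaged, and log2 of the processed signal minus the array's 75th percentile was taken. Between 58.6% and 63.6% of spots were above background, none was saturated, and the signal's 75th percentile lay between 93.2 and 152. A total of 24266 probes passed the filter and gave 16775 features. Symbols were updated by RefSeq accession for 26690 probes and by older symbol for 952, with 6886 left without one. Genotypes were compared with limma 3.58.1 (lmFit, eBayes) in R 4.3.3 on 4 arrays, adjusted by Benjamini-Hochberg over all features. Replicates are pools, so p-values measure the spread between pools. The number of arrays limits the precision, with 2 residual degrees of freedom, 5.52 after moderation. The smallest p of an exact permutation of 2 against 2 pools is 0.333.

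Arrays with the same number deviated from their group means with a correlation of 0.13. Slide, scan and number coincide, and no label ties a number to a shared litter or day, so the block is an alternative. Members and the 15 gene lists were chosen with earlier results of these data known. All members are named, at most 4 genes per list, from those with the smallest unadjusted p (not every list has genes named), and the 3 features nearest to Cryab. Aire, Maf, Mip and the lens genes above background on no array were named after their values were seen, and some results on eye genes are not reported here.

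The test was checked on simulated data, where it missed most of the smaller changes planted, which were larger than the difference between genotypes of any tested crystallin. It also called some features in which no change had been planted.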

Additional observations from a re-analysis of the deposited data

How the results depend on the processing

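The 7 crystallin genes were refitted under 7 other settings: the deposited value table, normexp background correction, quantile scaling, a filter on all 4 arrays, no filter, the mean of a gene's probes, and the replicate block. In all 49 values the difference stayed below 0 (range -0.73 to -0.10) and uncalled (adjusted p 0.822 to 1.00). Normexp moved 6 of the 7 by over 1.5 times: Cryaa to -0.10, Cryba1 to -0.26, Cryba2 to -0.19, Cryba4 to -0.29, Crybb1 to -0.38 and Crybb3 to -0.23. Averaging probes moved Cryaa to -0.45 and Cryab to -0.65. With the replicate block the differences were those of the unblocked fit (Cryab -0.38, SE 0.44), with 0 features called higher, 0 lower and 663 at an unadjusted p under 0.05, against 467 without it. That count was 208 with the filter on all 4 arrays, 1008 with no filter and 179 under normexp. Under normexp the endothelial list median was 0.061 in place of 0.56. With each array left out in turn, the lowest and highest differences were -0.67 and 0.28 for Cryaa, -1.10 and 0.35 for Cryab, -1.59 and 0.15 for Cryba1, -0.65 and -0.01 for Cryba2, -1.40 and 0.15 for Cryba4, -1.14 and -0.07 for Crybb1, -1.47 and 0.067 for Crybb3, and -1.88 and 0.53 for Crybb1 probe 1. Over the same fits, 0 to 198 features were called higher and 0 to 116 lower, the higher counts only without Meis1-CKO 1, and 0 crystallin genes were called. The within-slide differences were added after seeing the data, and those above 0 on slide 1 were Cryaa 0.73, Cryba1 0.26, Cryba2 0.24, Crybb1 0.45 and Crybb3 0.28. The cause was not tested. Signal over background limits Crybb2, Crygn and Crygs.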

Other observations

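Among the gamma crystallins and crystallin-like genes that are not members, 9 of the 12 on the array were tested, 5 higher and 4 lower with a median of 0.01 and none called. Crygc, Cryge and Crygf were above background on no array. Cryga (-2.14 and -1.77 in control, -2.66 and -2.51 in Meis1-CKO) and Crygd (-2.38 and -1.96 against -2.71 and -2.84) lay below both controls in each Meis1-CKO pool (14.4% of all features). They differed by -0.63 (SE 0.44) and -0.60 (SE 0.44) on the log2 scale and were lower on each slide. Their sequences are alike, so their probes may read each other's transcripts. Crym, a thyroid hormone binding protein gene, read 2.16, 1.41, 1.48 and -0.08, a difference of -1.08 (SE 0.67).

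Of 20 eye antigens of the retina and pigment epithelium on the array, 10 were above background on no array and 4 were tested, 2 higher and 2 lower with a median of 0.01 over all arrays, 1.00 on slide 1 and -1.54 on slide 2. Nrl, a retinal transcription factor, lay above both controls in both Meis1-CKO pools (1.54, SE 0.57, limma adjusted p = 1.00), as did 11.1% of all features.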
